A study of Mus musculus with 12 samples.

Results

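The core genes of the circadian clock were followed in mouse liver after concanavalin A (Con A) injury, with and without an infusion of human mesenchymal stem cells. The set held the 10 genes Arntl, Clock, Npas2, Per1, Per2, Per3, Cry1, Nr1d1, Nr1d2 and Dbp, chosen by gene symbol, and all 10 were present among the 11289 genes of the expression table. Con A is a plant lectin that activates T cells and causes an acute, immune-driven hepatitis. All groups were C57BL/6J mice, 8 to 10 weeks old per the labels (the study's methods give a younger range and male mice), with 4 mice per group. The control group has no treatment stated. The Con A + PBS group received Con A at 15 mg/kg through the tail vein and intravenous PBS 30 min later. The Con A + hWJ-MSCs group received the same Con A dose and intravenous hWJ-MSCs, human mesenchymal stem cells of the umbilical cord (Wharton's jelly), suspended in PBS. Livers were collected 24 h later and their poly-A RNA was sequenced. The clock time of collection, the light schedule and feeding were not given in the sources used here, so each value is a single sample of a daily rhythm whose phase is not known.

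The clock is a feedback loop of transcription factors. BMAL1, encoded by Arntl, pairs with CLOCK or its relative NPAS2 and activates the Per, Cry, Nr1d1, Nr1d2 and Dbp genes through E-box motifs. PER and CRY proteins return to the nucleus and inhibit that pair. REV-ERBα and REV-ERBβ, encoded by Nr1d1 and Nr1d2, repress Arntl and Npas2 through the same DNA element that the ROR receptors use to activate them, and DBP activates genes with a D-box. In liver this loop times bile acid, glucose, lipid and drug metabolism to feeding and to glucocorticoid rhythms, and Per1 and Per2 are also induced directly by hormonal and stress signals.

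Promoter sequences from RefSeq (GRCm38.p6) were available for 9 of the 10 genes, all but Per2. Each window ran from 250 bases before to 50 after a listed start, and the window nearest to the start of the deposited transcript was taken where several were listed. Both strands were searched for the E-box CACGTG, the D-box TTATGTAA, the letters TNGGTCA and the cAMP response element TGACGTCA. TNGGTCA is wider than the half-site that REV-ERB and ROR receptors are known to bind, which has A or G in place of N. The stretches below are printed because they hold every match found, with the REV-ERB genes added since they had the largest fold differences of the 10 between infused and control mice. Capitals mark the matches, and all run 5′ to 3′ on the gene's own strand. Arntl is chr7:113207235-113207320 (+), Per1 is chr11:69098753-69098818 (+), Per3 is chr4:151044666-151044915 (-), Cry1 is chr10:85185079-85185144 (-), Nr1d1 is chr11:98775378-98775627 (-) and Nr1d2 is chr14:18239128-18239356 (-).
Arntl: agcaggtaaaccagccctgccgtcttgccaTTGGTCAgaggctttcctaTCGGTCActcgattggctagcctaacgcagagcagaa
Per1: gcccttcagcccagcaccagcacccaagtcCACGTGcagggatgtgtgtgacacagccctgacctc
Per3: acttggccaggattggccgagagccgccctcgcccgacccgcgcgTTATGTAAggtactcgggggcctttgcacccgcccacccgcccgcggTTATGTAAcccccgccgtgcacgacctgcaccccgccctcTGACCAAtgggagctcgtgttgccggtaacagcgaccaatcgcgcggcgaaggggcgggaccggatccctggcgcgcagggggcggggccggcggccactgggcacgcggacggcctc
Cry1: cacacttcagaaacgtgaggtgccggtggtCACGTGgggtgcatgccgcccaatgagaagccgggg
Nr1d1: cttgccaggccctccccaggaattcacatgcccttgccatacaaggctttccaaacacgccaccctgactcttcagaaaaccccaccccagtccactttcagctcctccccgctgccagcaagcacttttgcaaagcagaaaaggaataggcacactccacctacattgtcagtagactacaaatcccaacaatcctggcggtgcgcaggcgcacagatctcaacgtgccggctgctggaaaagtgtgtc
Nr1d2: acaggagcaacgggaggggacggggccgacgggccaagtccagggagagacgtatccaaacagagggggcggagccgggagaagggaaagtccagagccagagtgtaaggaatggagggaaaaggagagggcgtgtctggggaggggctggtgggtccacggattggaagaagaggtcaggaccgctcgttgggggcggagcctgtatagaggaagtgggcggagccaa

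None of these stretches includes an annotated exon of its own gene. Arntl held TNGGTCA as TTGGTCA at 200 and as TCGGTCA at 181 bases before the start. Per1 and Cry1 held an E-box at 166 and 60 bases before the start, respectively. Per3 held the D-box at 205 and at 158 bases, and TNGGTCA once on the opposite strand, printed as TGACCAA, at 118 bases. All 3 of these matches have T or C in place of N, so none is the receptor half-site. Neither TAGGTCA nor TGGGTCA was found in the 9 windows, against 6.45% of all windows with either. The search was for exact letters, so it missed variants of the half-site and sites outside the windows. The Arntl window holds the near match TAGGTTA close to its downstream end, beyond the printed stretch. No cAMP response element was found in the 9 windows. Among all 32851 RefSeq promoter windows of 300 bases, 7.15% held the E-box, 0.938% the D-box, 11% TNGGTCA and 1.79% the cAMP response element. Each match describes letters in the window and not a bound site. The listed Per1 start lay 3732 bases from the deposited transcript start, with the printed stretch in an intron of that transcript, and the listed starts of Npas2 and Dbp lay 541 and 159 bases from theirs.

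In mm10, the deposited transcripts lie at chromosome 7, 113207465 to 113314122 (Arntl), chromosome 5, 76212177 to 76304548 (Clock), chromosome 1, 91415982 to 91459324 (Per2), chromosome 11, 69095217 to 69106458 (Per1), chromosome 4, 151003652 to 151044665 (Per3), chromosome 10, 85131702 to 85185054 (Cry1) and chromosome 14, 18204054 to 18239127 (Nr1d2), and those of Npas2, Nr1d1 and Dbp are given with their values. The deposited values were normalized, so that the 12 totals lay between 17649654 and 17657159 and sequencing depth was unknown. Every gene of the table reached 64 in at least 2 mice, so a gene under 64 throughout one group is present only through the others. All 10 clock genes reached 64 in at least 2 mice outside any single group. None of the 10 genes was at the ceiling of 341028 that 10 genes shared in each mouse. Group differences were tested on log2(value + 1), a scale that understates changes of low genes, with limma over all 12 mice and Benjamini-Hochberg adjustment over the 11289 genes. A gene was called where its adjusted p was under 0.05 and its mean moved by more than 1.5-fold. A two-sided exact permutation test of 4 against 4 mice accompanied it, for which 0.0286 is the smallest p possible and means that the groups did not overlap. In bulk liver, fewer cells of a type and less RNA per cell cannot be told apart. Across the 12 livers, the summed values of the 9 measured hepatocyte markers of 10 listed were 1010219 to 1226851 in control mice, 704631 to 764133 in Con A + PBS mice and 766705 to 830336 in Con A + hWJ-MSCs mice, and none of the 9 was at 0 in any mouse. The 3 ranges did not overlap, but a sum weighs the highest markers most. It was not examined which markers carried the sums or reached the ceiling. After Con A, 4 of the 9 were called lower (Ass1, Cyp2e1, Apoa1 and Ttr), in infused against control mice 3 (Ass1, Apoa1 and Cyp2e1), and between the injured groups limma called none of the 9 (1 had an unadjusted p below 0.05), with median log2 differences of -0.26, 0.0 and 0.08. The part of this difference in the clock gene values was not tested.

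Con A injury moved clock genes in both directions. Per2 and Per1 rose, Arntl and Npas2 fell, and the other 6 clock genes were not called between Con A + PBS and control mice. Across all genes tested, 19.5% were called higher and 19.2% lower in this comparison, so that 2 higher and 2 lower of 10 are near the background. Per2 alone had all Con A + PBS mice above all control mice and Arntl alone had all below, against 27.1% and 23.4% of all genes without overlap in each direction. The median log2 difference of the 10 genes was -0.22, and that of all genes 0.05.

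Both REV-ERB genes were low in the infused mice against control mice. Comparing the infused group with its PBS-treated counterpart, 1 of the 10 clock genes, Nr1d2, was called lower and none higher, where 4.38% of all genes were called lower and 4.20% higher. Dbp alone did not overlap between these groups and was lower, against 11.6% of all genes lower and 11.9% higher without overlap. Set against control mice, the Con A + hWJ-MSCs mice had Nr1d1, Nr1d2 and Per3 called lower and Per2 called higher, against 13.1% of all genes called lower and 13.6% higher. The same 4 genes did not overlap between those groups, where 17.3% of all genes were lower and 20.6% higher without overlap. The median log2 differences of the 10 genes were -0.59 and -0.42 in these comparisons, and those of all genes were 0.0 and 0.04. The comparisons share groups, so that the Con A + PBS mice enter the first 2 and the control mice the first and the last, and the 3 are not independent.

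**Figure D1:**
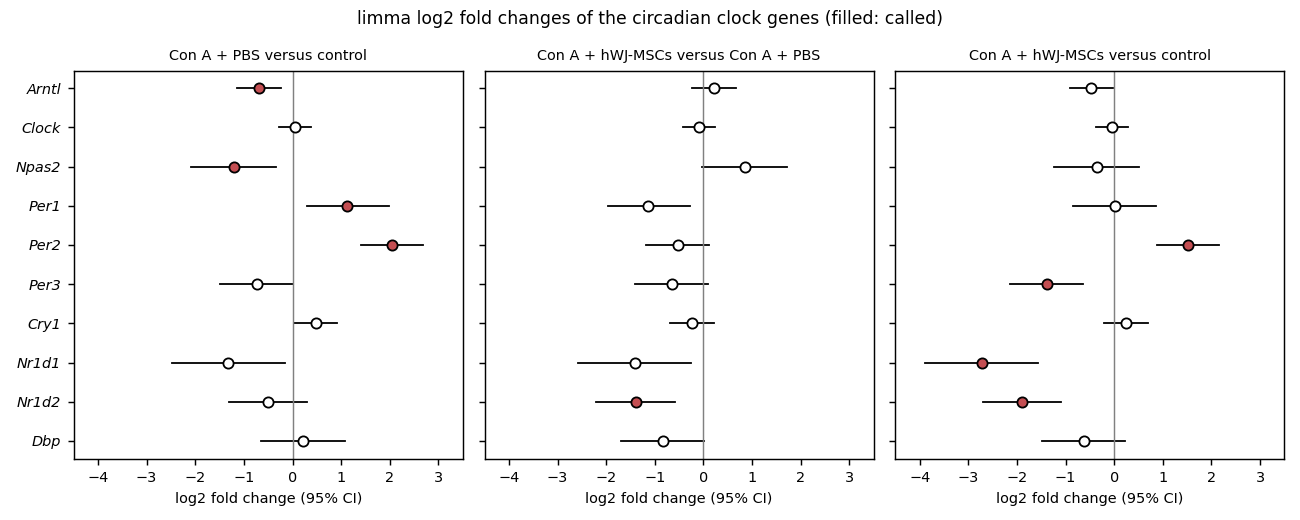
Points are limma log2 fold changes of the 10 clock genes, 1 panel per comparison, with 95% confidence intervals as lines and filled points for called genes, on log2(value + 1), 4 mice per group. The Per2 interval lies above 0 in both comparisons with control mice, and the Nr1d1 and Nr1d2 intervals reach furthest below 0 for infused against control mice.

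Of the activators, Arntl encodes BMAL1, the partner without which the loop cannot run. Its normalized values were 396, 528, 392 and 340 in the control mice (replicates 1 to 4). In the Con A + PBS mice they were 226, 322, 336 and 166, all below the lowest control mouse. The Con A + hWJ-MSCs mice had 286, 344, 282 and 270, of which 1 reached above the lowest control mouse. Arntl was thus 1.62-fold lower in Con A + PBS than in control mice, with a log2 difference of -0.69 (95% confidence interval -1.14 to -0.24, limma adjusted p = 0.0133, exact permutation p = 0.0286). The call ended without control replicate 2 (-0.57, below the fold threshold) and without Con A + PBS replicate 4 (-0.49). Between the 2 injured groups the log2 difference was 0.22 (adjusted p = 0.475 in limma), and between Con A + hWJ-MSCs and control mice it was -0.47 (adjusted p = 0.088 in limma).

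Clock encodes the histone acetyltransferase that pairs with BMAL1, and its values stayed within 1 range in all groups. The control mice spread over 498, 814, 638 and 730. The Con A + PBS mice had 671, 693, 674 and 688, a highest value 1.03 times the lowest, where 99.5% of all genes spread more. The Con A + hWJ-MSCs mice had 560, 598, 615 and 806. The log2 differences were 0.05 for Con A + PBS against control mice (95% confidence interval -0.28 to 0.37, limma adjusted p = 0.802) and -0.09 between the injured groups (limma adjusted p = 0.683). Its interval leaves out changes as large as the one estimated for Arntl.

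Npas2 encodes the relative that can stand in for CLOCK. Its control values were 284, 168, 151 and 92, a highest value 3.09 times the lowest. The Con A + PBS mice had 56, 136, 90 and 32, which overlapped the control mice through replicate 2. The Con A + hWJ-MSCs mice had 120, 150, 139 and 96, inside the control range. Npas2 fell by 1.21 on the log2 scale in Con A + PBS against control mice (95% confidence interval -2.09 to -0.34, limma adjusted p = 0.0221, exact permutation p = 0.0571). Leaving out control replicate 1, Con A + PBS replicate 1 or Con A + PBS replicate 4 ended the call, with log2 differences of -0.94, -1.12 and -0.86. Between the injured groups Npas2 differed by 0.85 in favour of the infused mice, short of a call (95% confidence interval -0.03 to 1.73, limma adjusted p = 0.156). The deposited Npas2 transcript is a short one of 3 exons and 484 bases on chromosome 1, from 39193731 to 39287615 (mm10), while the annotated gene runs to 39363236.

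**Figure D2:**
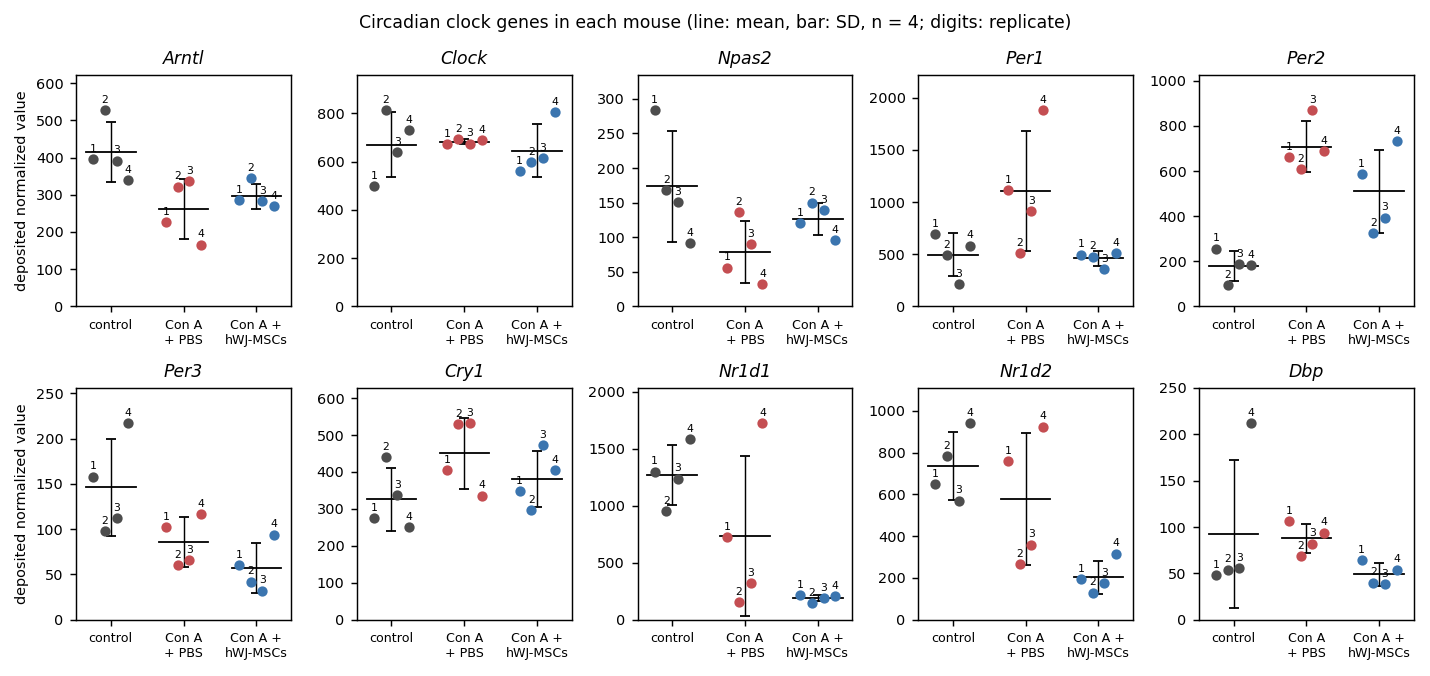
Each panel shows the normalized value of 1 clock gene in the 12 mice by group, with horizontal lines at the group means and bars of 1 SD (n = 4); each gene has its own axis from 0. Nr1d1 in the Con A + PBS mice runs from 156 to 1723, while the Con A + hWJ-MSCs mice lie between 148 and 214.

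Per2 had the firmest change after Con A. It encodes a repressor that enters the nucleus with CRY and ends the activating phase. The control mice had 256, 94, 186 and 184. The Con A + PBS mice had 662, 608, 871 and 690, and the infused mice 586, 325, 394 and 733. The group means were 180 ± 66.4, 708 ± 114 and 510 ± 185 (SD, n = 4 each). Every injured mouse of both groups lay above the highest control mouse, and the 2 injured groups overlapped. Per2 was 4.12-fold higher in Con A + PBS than in control mice, a log2 difference of 2.04 (95% confidence interval 1.40 to 2.69, limma adjusted p = 0.000113, exact permutation p = 0.0286). In Con A + hWJ-MSCs against control mice it was 2.85-fold higher, a log2 difference of 1.51 (95% confidence interval 0.87 to 2.15, limma adjusted p = 0.00175). Both calls held in all 12 fits that left out 1 mouse each. The step between the injured groups was -0.53 and was not called (95% confidence interval -1.18 to 0.11, limma adjusted p = 0.22).

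Per1, the other period gene that responds directly to stress hormones, varied more than Per2 among the Con A + PBS mice, with a highest value 3.7 times the lowest against 1.43 times. The control values were 692, 493, 212 and 582. The Con A + PBS values were 1114, 509, 917 and 1884, so that replicate 2 stayed inside the control range and replicate 4 stood highest of all 12 mice. The Con A + hWJ-MSCs values of 496, 478, 354 and 510 lay within the control range. Per1 rose by 1.13 on the log2 scale in Con A + PBS against control mice (95% confidence interval 0.29 to 1.98, limma adjusted p = 0.0257, exact permutation p = 0.0857). That call ended without control replicate 3 (0.77), Con A + PBS replicate 1 (1.08) or Con A + PBS replicate 4 (0.83), and in a fit of the 8 mice compared (limma adjusted p = 0.0552). Between the injured groups the difference was of the same size downwards, -1.13, and missed the threshold (95% confidence interval -1.97 to -0.28, limma adjusted p = 0.0677). It passed without control replicate 3 (limma adjusted p = 0.0473) and without Con A + PBS replicate 2 (-1.45, limma adjusted p = 0.0222). Against control mice, the infused mice differed by 0.01.

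Per3, whose product contributes less to rhythm generation than those of Per1 and Per2, moved the opposite way. The control mice had 158, 98, 112 and 217, the Con A + PBS mice 102, 60, 66 and 117, and the infused mice 60, 42, 32 and 94. The infused mice all lay below the lowest control mouse, and the Con A + PBS mice overlapped both other groups. Per3 was 2.62-fold lower in Con A + hWJ-MSCs than in control mice, a log2 difference of -1.39 (95% confidence interval -2.14 to -0.64, limma adjusted p = 0.00713), and the call held in all 12 fits that left out 1 mouse. The steps from control to Con A + PBS (-0.74, limma adjusted p = 0.0866) and from there to the infused mice (-0.65, limma adjusted p = 0.202) were not called singly.

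Cry1 encodes a strong repressor of CLOCK and BMAL1. Its values were 274, 440, 338 and 250 in control mice, 404, 529, 532 and 336 in Con A + PBS mice, and 348, 297, 472 and 404 in Con A + hWJ-MSCs mice. The groups overlapped in every comparison. The log2 difference of Con A + PBS from control mice was 0.48 (95% confidence interval 0.03 to 0.92, limma adjusted p = 0.067), and it passed only without control replicate 2 (0.63) or without Con A + PBS replicate 4 (0.61) among the 12 fits that left out 1 mouse. The infused mice differed from the Con A + PBS mice by -0.24 (limma adjusted p = 0.435).

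Nr1d1, encoding REV-ERBα, had the largest fold difference of the 10 genes, between infused and control mice. The control mice were high and close, at 1298, 954, 1238 and 1586. The Con A + PBS mice were scattered, at 724, 156, 322 and 1723, and replicate 4 was the highest of all 12 mice. The Con A + hWJ-MSCs mice were low and close, at 214, 148, 188 and 208. The group means were 1269 ± 259, 731 ± 703 and 190 ± 29.8 (SD, n = 4 each). The highest value was 1.66 times the lowest in control mice, 11 times in Con A + PBS mice and 1.45 times in infused mice. Of all genes, 0.744% had a larger ratio within the Con A + PBS group, where the median gene's ratio was 1.37. Infused mice were 6.63-fold below control mice, a log2 difference of -2.73 (95% confidence interval -3.89 to -1.57, limma adjusted p = 0.00174, exact permutation p = 0.0286), and this held in all 12 fits that left out 1 mouse.

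The other Nr1d1 comparisons turned on single Con A + PBS mice. Con A + PBS against control mice gave -1.32 (95% confidence interval -2.48 to -0.15, limma adjusted p = 0.0525). Without Con A + PBS replicate 4 the difference was -1.91 and called (limma adjusted p = 0.00142), and without Con A + PBS replicate 2 it was -0.76 (limma adjusted p = 0.143). The infused against the Con A + PBS mice gave -1.41 (95% confidence interval -2.57 to -0.25, limma adjusted p = 0.0869, exact permutation p = 0.114). There the omission of Con A + PBS replicate 2 gave -1.97 and a call (limma adjusted p = 0.0139), and that of replicate 4 gave -0.82 (limma adjusted p = 0.19).

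Nr1d2, encoding REV-ERBβ, was low in the infused mice too. The control mice had 648, 784, 570 and 941, the Con A + PBS mice 760, 266, 360 and 925, and the infused mice 194, 130, 176 and 316. Con A + PBS replicates 1 and 4 lay within the control range and replicates 2 and 3 below it. The infused mice were 3.72-fold below control mice without overlap, a log2 difference of -1.89 (95% confidence interval -2.70 to -1.09, limma adjusted p = 0.0017), in all 12 fits that left out 1 mouse. Against Con A + PBS mice the difference was -1.39 (95% confidence interval -2.20 to -0.59, limma adjusted p = 0.0356), with overlap through infused replicate 4 (exact permutation p = 0.0571). This call held in 7 of 12 such fits and ended without Con A + PBS replicate 1 or 4, and without infused replicate 1, 2 or 3, where it lay between -1.39 and -1.11. In those 5 fits 0.0620% to 4.48% of all genes were called in either direction, in place of 8.58%. It also ended in a fit of the 8 mice compared (limma adjusted p = 0.0648). Con A + PBS and control mice differed by -0.50 (limma adjusted p = 0.266).

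**Figure D3:**
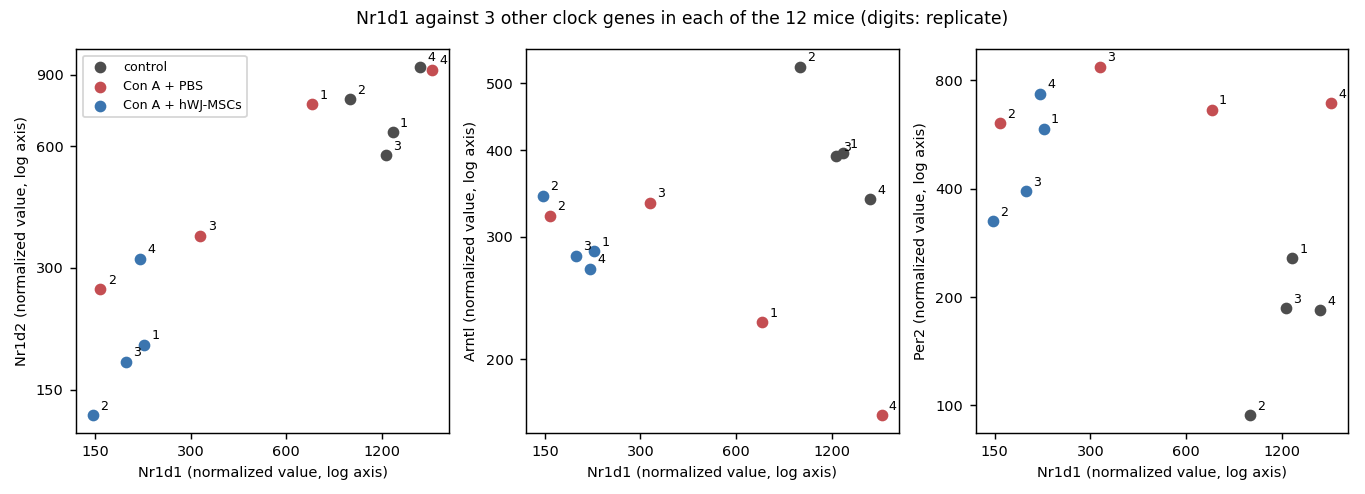
Each point is 1 mouse, with Nr1d1 on the x axis and Nr1d2, Arntl or Per2 on the y axis (normalized values, log axes; digits give the replicate). The 4 infused mice sit together at low Nr1d1 and Nr1d2, and the Con A + PBS mice run from that corner to the control mice for both genes, while for Arntl Con A + PBS replicate 4 has the highest Nr1d1 (1723) and the lowest Arntl (166).

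Dbp encodes a D-box activator and is itself driven by BMAL1. Control mice had 48, 54, 56 and 212, with replicate 4 far above the rest. Con A + PBS mice had 106, 69, 82 and 94, and Con A + hWJ-MSCs mice had 64, 40, 38 and 54, all below the lowest Con A + PBS mouse. Although these did not overlap (exact permutation p = 0.0286), the log2 difference of -0.84 was not called (95% confidence interval -1.70 to 0.02, limma adjusted p = 0.152). It was called in a fit of the 8 mice compared (limma adjusted p = 0.044). Without control replicate 4, whose spread enters the fit, the same -0.84 was called (limma adjusted p = 0.0359), and Con A + PBS became higher than control mice by 0.71 (limma adjusted p = 0.0209) in place of 0.21 (limma adjusted p = 0.667).

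Nr1d1 and Dbp each overlap a gene on the opposite strand. In the mm10 annotation, exons of Nr1d1 on chromosome 11 (98767932 to 98775333, minus strand) share 263 bases, or 8.55% of their length, with Thra, the thyroid hormone receptor gene. Exons of Dbp on chromosome 7 (45705088 to 45710155, plus strand) share 539 bases, or 18%, with Sphk2, a sphingosine kinase gene. The strand setting of the counting is not given in the sources used here, so reads there cannot be assigned between the partners. The rows of the table list 1 transcript per gene. That of Thra, on chromosome 11 from 98740638 to 98753379, ends before Nr1d1 begins, so that the shared exons belong to other annotated Thra transcripts. That of Sphk2, on chromosome 7 from 45709467 to 45718002, reaches into the Dbp transcript. Whether the Thra values include reads of the shared bases is not known. Thra had 427, 313, 311 and 324 in control mice, 119, 148, 129 and 68 in Con A + PBS mice and 138, 208, 144 and 126 in infused mice. Sphk2 had 864, 842, 862 and 1004, then 524, 629, 568 and 321, then 668, 766, 610 and 620. Both partners thus fell in Con A + PBS against control mice, Thra by 1.60 (limma adjusted p = 9.95e-05) and Sphk2 by 0.85 (limma adjusted p = 0.00154) on the log2 scale. In infused against control mice, where Nr1d1 was called lower, Thra was called lower as well (-1.17, limma adjusted p = 0.00171), in all 12 fits that left out 1 mouse, and Sphk2 differed by -0.42 without a call (limma adjusted p = 0.0728). The part of shared reads in the Nr1d1 difference was not tested. The order of the Con A + PBS mice differed from that of Nr1d1, for which replicate 4 was highest, since replicate 2 was the highest and replicate 4 the lowest for Thra and Sphk2.

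Within the Con A + PBS group, several clock genes put the 4 mice in the same order, which was noticed after the values were seen and is given without a test. Replicate 4 was highest, then 1, 3 and 2, for Per1, Per3, Nr1d1 and Nr1d2. Cry2, Bhlhe40, Tef and Ciart among the other loop genes below had that order too. The order of replicate numbers was not confined to this group. Control mice had it for Per3, Nr1d1 and Tef, and infused mice for Nr1d2, but not for the others named. In the Con A + PBS mice, 1369 of all 11289 genes (12.1%) had it, and 1410 (12.5%) had the exact opposite, among them Npas2 and Hlf. The summed hepatocyte markers of these mice were 727031, 764133, 744465 and 704631 for replicates 1 to 4, the opposite order, although the mean log2 value of the same markers did not follow it, at 15.35, 15.57, 15.47 and 15.4. The leukocyte marker sums, at 4553, 5666, 4557 and 3891, had the opposite order too, with replicates 1 and 3 nearly equal. The mean log2 value of the leukocyte markers did not follow it, at 8.33, 8.69, 8.3 and 8.04. From highest to lowest, the neutrophil and monocyte, T cell and endothelial sums ran replicates 2, 1, 3 and 4. The stellate cell sums ran 2, 3, 4 and 1. Coordinates on the first principal component of all genes, which held 64.8% of the variance, were 54.3, 37.5, 47.1 and 63.8, the same order as the 4 clock genes. The part of hepatocyte and leukocyte markers in the clock gene order was not tested.

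**Figure D4:**
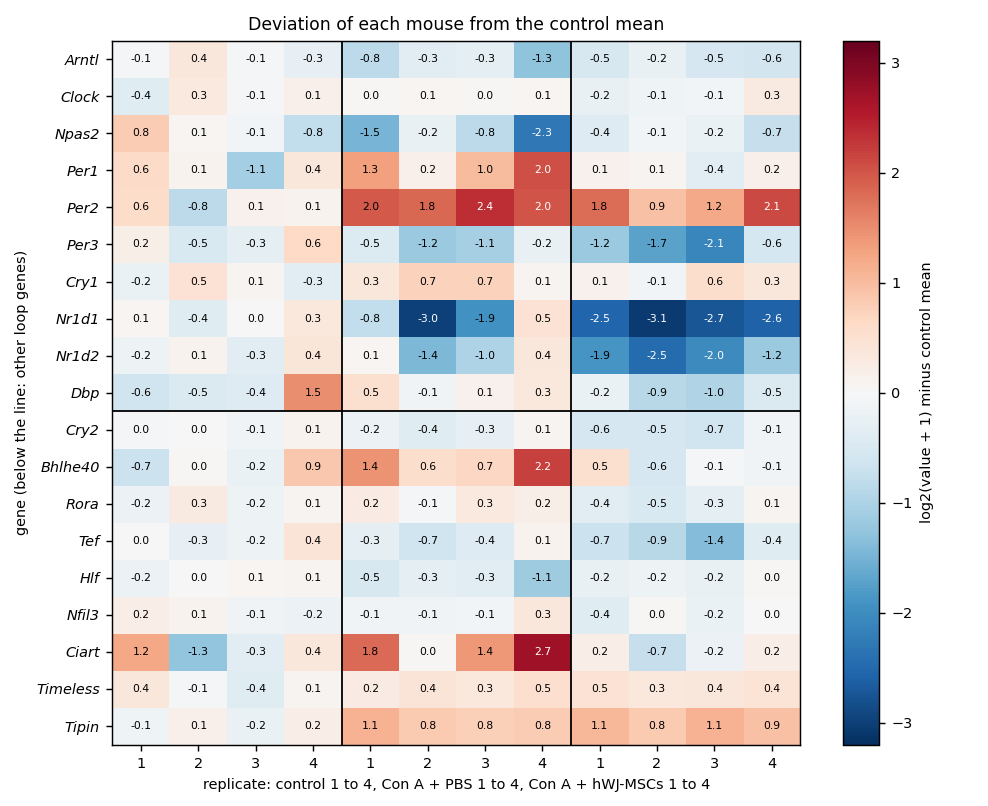
Rows are the 10 clock genes and, under the line, 9 other loop genes, and columns are the 12 mice; colour and number give each mouse's log2(value + 1) minus the mean of the control mice. Per2 is above 0 and Nr1d1 and Nr1d2 are below it in every Con A + hWJ-MSCs mouse, while the Con A + PBS columns differ from mouse to mouse in the Nr1d1 row.

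Other genes of the loop were read from a list, of which 10 of 14 symbols were in the table. Arntl2, Bhlhe41 and Rorb were not listed there under those symbols, and Gm129 is an older symbol of Ciart. Between Con A + PBS and control mice, 2 of the 10 were called higher and none lower, against 19.5% and 19.2% of all genes. Bhlhe40 encodes DEC1, a repressor that competes for E-boxes. It had 839, 1378, 1162 and 2468 in control mice, 3642, 1988, 2142 and 6154 in Con A + PBS mice, and 1920, 922, 1288 and 1246 in infused mice. The infused mice all lay below the lowest Con A + PBS mouse and within the control range. Bhlhe40 rose by 1.21 after Con A (limma adjusted p = 0.0172) and was lower by a log2 difference of -1.27 after the infusion (limma adjusted p = 0.0484), the only call of the 10 between the injured groups. The first call ended without control replicate 1 (0.98), and the second held in 3 of 12 fits that left out 1 mouse.

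Tipin, the partner of TIMELESS at replication forks, had 42, 52, 40 and 54 in control mice, 102, 85, 80 and 82 in Con A + PBS mice and 98, 84, 102 and 90 in infused mice. It was 1.85-fold higher in Con A + PBS (limma adjusted p = 0.000457) and 1.98-fold higher in infused mice (limma adjusted p = 0.000402) than in control mice. No control mouse reached the table's minimum of 64, so Tipin was in the table only through the groups where it was high, and these differences are a description. Its partner Timeless was not called, at 57 to 98 in control, 90 to 110 in Con A + PBS and 96 to 105 in infused mice. Tef, a D-box activator related to DBP, had 1006, 836, 886 and 1341 in control mice, 826, 636, 745 and 1068 in Con A + PBS mice and 618, 540, 384 and 760 in infused mice. It was called lower in infused than in control mice (-0.84, limma adjusted p = 0.00921) and not between the injured groups (-0.52, limma adjusted p = 0.112).

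Hlf, the third D-box activator of that family, had 690, 794, 823 and 833 in control mice, 550, 642, 615 and 358 in Con A + PBS mice and 666, 700, 668 and 803 in infused mice. It did not overlap between Con A + PBS and control mice, and its difference of -0.57 (limma adjusted p = 0.0103) stayed under the fold threshold. Ciart, a repressor of the BMAL1 pair, had 50, 8, 16 and 27, then 75, 21, 56 and 140, then 24, 12, 18 and 24. Its log2 differences of 1.49 after Con A (limma adjusted p = 0.0502) and -1.61 after the infusion (limma adjusted p = 0.0817) were not called. Only Con A + PBS replicates 1 and 4 reached 64, so Ciart was in the table through that group alone, which biases both differences. Cry2, the second cryptochrome gene, spread over 458 to 540 in control, 378 to 530 in Con A + PBS and 316 to 458 in infused mice, with -0.46 between infused and control mice (limma adjusted p = 0.0156), under the fold threshold. The nuclear receptor gene Rora, at 935 to 1290, 1020 to 1325 and 750 to 1132 in the 3 groups, was not called in any comparison. Nfil3, the D-box repressor, was not called either, at 743 to 980, 785 to 1086 and 656 to 872.

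Enzymes and cofactors that modify clock proteins made up the next list, with 23 of 23 in the table. Of these, 2 were called higher and 2 lower after Con A, and 1 higher and 3 lower between the injured groups, with median log2 differences of 0.07 and -0.27. Of all genes, 19.5% were called higher and 19.2% lower in the first comparison, and 4.20% and 4.38% in the second. Nampt makes the NAD precursor that the deacetylase SIRT1 consumes. It had 902, 1156, 684 and 1106 in control mice, 4932, 2730, 2789 and 6158 in Con A + PBS mice and 2164, 1302, 2266 and 2080 in infused mice, 3 groups without overlap. It was 4.13-fold higher after Con A (limma adjusted p = 7.12e-05) and lower by a log2 difference of -1.03 in infused than in Con A + PBS mice (limma adjusted p = 0.0369). Fbxl21, an F-box protein gene acting on cryptochromes, went the other way, at 79, 64, 138 and 66, then 26, 34, 39 and 16, then 58, 80, 69 and 52. No Con A + PBS mouse reached 64, so Fbxl21 was in the table only through the groups where it was higher. Its log2 differences were -1.56 after Con A (limma adjusted p = 0.00107) and 1.2 after the infusion (limma adjusted p = 0.0326). The Nampt and Fbxl21 calls between the injured groups each held in 7 of 12 fits that left out 1 mouse.

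Prkaa2, a catalytic subunit gene of the energy sensor AMPK, had 859, 1381, 898 and 1354 in control mice, 596, 669, 580 and 573 in Con A + PBS mice and 558, 563, 534 and 660 in infused mice. It fell after Con A (-0.86, limma adjusted p = 0.000611), and all injured mice lay below all control mice. The other called modifiers between the injured groups were the kinase gene Csnk1e (-0.71, limma adjusted p = 0.0468) and the F-box gene Fbxw11 (-0.62, limma adjusted p = 0.0462). In infused against control mice, 1 of the 23 was called higher and 2 lower, against 13.6% and 13.1% of all genes.

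Genes whose liver expression is known to be rhythmic formed the output list, of which 12 of 15 symbols were in the table. None was called higher and 5 were called lower after Con A, where 19.5% of all genes were called higher and 19.2% lower. Cyp7a1, the rate-limiting enzyme of bile acid synthesis, had 7356, 1768, 3406 and 2503 in control mice. It had 35, 119, 54 and 64 in Con A + PBS mice and 175, 479, 116 and 104 in infused mice. The injured mice were thus far below the control mice, with log2 differences of -5.69 (limma adjusted p = 4.11e-06) and -4.18 (limma adjusted p = 8.13e-05), while the injured groups differed by 1.52 without a call (limma adjusted p = 0.0683).

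Elovl3, an elongase of fatty acids, had 78, 32, 73 and 87 in control mice, 16, 3, 8 and 35 in Con A + PBS mice and 6, 13, 1 and 7 in infused mice. It was called lower in Con A + PBS (-2.40, limma adjusted p = 0.0164) and in infused mice (-3.35, limma adjusted p = 0.0039) than in control mice. It reached 64 in 3 control mice and in no other mouse, so it was in the table only through the group where it was high, and the differences are a description. Rgs16, a regulator of G protein signalling, had 974, 392, 142 and 1151, then 190, 102, 122 and 341, then 164, 134, 88 and 233. Its fall of -1.56 after Con A (limma adjusted p = 0.0382) held in 7 of 12 fits that left out 1 mouse, and ended without control replicate 1 or 4 or Con A + PBS replicate 1, 2 or 3. Between the injured groups 1 of the 12 was called higher and 2 lower, against 4.20% and 4.38% of all genes. Nr1i3, the receptor CAR, was higher (1.35, limma adjusted p = 0.0252), after a fall with Con A of similar size (-1.41, limma adjusted p = 0.0017), and Alas1, the first enzyme of haem synthesis (-1.06, limma adjusted p = 0.0352), and Tspan4 (-0.60, limma adjusted p = 0.0404) were lower. In infused against control mice 1 of the 12 was called higher and 4 lower, against 13.6% and 13.1% of all genes. The list medians were -0.37, -0.43 and -0.50 in the 3 comparisons.

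Markers of other liver cells were summed in each mouse. The summed values of 10 leukocyte markers were 2875 to 3540 in control, 3891 to 5666 in Con A + PBS and 3241 to 5290 in infused mice. Those of 8 neutrophil and monocyte markers were 1052 to 1445, 1969 to 3140 and 2049 to 3698. Of 8 T cell markers only Lck and Cd8a were in the table, and their sums were 15 to 37, 114 to 236 and 136 to 162. Neither reached 64 in a control mouse, nor did S100a8, S100a9 and Ly6c2 of the neutrophil and monocyte list, so these 5 were in the table only through the injured groups. Those of 6 endothelial markers were 2063 to 2960, 1075 to 1516 and 1204 to 1476, and those of 6 stellate cell markers 4647 to 7486, 6021 to 6979 and 4396 to 9298. Among these genes 1, a T cell marker, was at 0 in a control mouse. Between the injured groups these sums overlapped for every list, while the infused and control mice did not overlap for the neutrophil, T cell and endothelial lists. That separation rests in part on genes kept through the group where they were high. Single markers went against their sums. After Con A, Lyz2 of the neutrophil and monocyte list (-1.39) and Tyrobp of the leukocyte list (-0.85) were called lower, Lyve1 of the endothelial list was called higher (1.29), and the stellate cell genes Reln (-2.60) and Lrat (-2.24) were called lower although the stellate sums overlapped. In the comparison of the injured groups none of the leukocyte, neutrophil and monocyte, T cell and stellate markers was called by limma (2, 0, 0 and 3 had an unadjusted p below 0.05), while of the endothelial markers Stab2 was called higher and Lyve1 and Cdh5 lower. The part of these cells in the clock gene values was not tested.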

How the data were processed

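RNA-seq of liver from 12 mice (4 control, 4 Con A + PBS, 4 Con A + hWJ-MSCs) was analysed from the deposited gene table. Per the labels, the libraries were poly-A selected and sequenced as 150 bp paired reads. The submitters' processing notes name RSEM 1.2.18, Bowtie2 2.2.1 and build mm10, and the role of each is not given in the sources used here. The deposited values are whole numbers but not raw counts, and are treated as a score that the authors had normalized across mice, because 91.3% of ranks differ by at most 2 across mice, a pattern that quantile normalization leaves (the step itself is not given in the sources used here), and every gene reaches 64 in at least 2 mice. Depth is therefore unknown, no counting interval can be given, and no count test was run.

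Values were taken as log2(value + 1) and fitted with limma 3.58.1 (R 4.3.3; empirical Bayes with a trend) over 3 groups, with Benjamini-Hochberg adjustment over 11289 genes. Single genes had a two-sided exact permutation test (scipy 1.17.1). In a simulation of Con A + PBS against control mice on 11289 genes, 200 changed by 0.8 or 1.5 on the log2 scale, of which 59.5% and 91.5% were recovered. The 200 changed genes were a far smaller share than the 38.8% called in the data. The adjustment depends on that share, so these rates do not give the recovery in the data. All 10 clock genes were named, with the other loop genes (1 of them is not reported here) and the 3 with the largest changes called after Con A from each further list; other genes were named for their calls in the remaining comparisons, after their values were seen. The members and lists were chosen with earlier results of these data known. Samples labelled with the same number are different mice, and the labels do not say what the number stands for. Their deviations correlated between -0.118 and 0.375, without a comparison to mice of unlike numbers, and they were not paired in the main fit. Alternatives were a pseudocount of 10, a mean value of at least 100, median centring, renewed quantile normalization, no trend, only the 8 mice compared, a replicate block, unadjusted p, other fold thresholds and the omission of each mouse. Overlaps of exons came from GENCODE.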

Additional observations from a re-analysis of the deposited data

Results flagged for a closer look

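Among 84 sets of 4 mice examined for a value far from the rest, 3 had one, and chance alone gives about 1 in 20. Dbp, the D-box activator, was 212 in control replicate 4, above 48, 54 and 56 in the other control mice, a gap of 0.951 of the group's range. Nfil3, the D-box repressor, was 1086 in Con A + PBS replicate 4, above 785, 786 and 795 in the others, a gap of 0.967 of the range. Tsc22d3, the glucocorticoid-induced leucine zipper gene, was 872 in Con A + PBS replicate 4, below 1006, 1014 and 1014 in the others, a gap of 0.944 of the range.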

How the results depend on the processing

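Of the 654 log2 differences of the 10 clock genes under the alternatives, 330 leaving out 1 mouse and 282 under the others kept their direction and their side of the threshold, while 13 and 3 lost a call, 9 and 9 gained one and 8 and 0 changed sign. With 1 mouse left out, the called clock genes numbered 2 to 5 in Con A + PBS against control mice (4 with all mice, 2 without Con A + PBS replicate 1), 0 to 4 between the injured groups (1 with all mice, 0 without Con A + PBS replicate 1 or 4 or infused replicate 1, 2 or 3, 2 without control replicate 3 or 4, 4 without Con A + PBS replicate 2) and 4 throughout for Con A + hWJ-MSCs against control mice. Between the injured groups, unadjusted p gave 3 called clock genes in place of 1, and 15.0% of all genes in place of 8.58%; with 1 mouse left out that share ran from 0.0620% (without Con A + PBS replicate 1 or infused replicate 3) to 14.0% (without Con A + PBS replicate 2). Clock ranged from -0.09 to 0.15 and Per1 from -0.36 to 0.21 on the log2 scale with 1 mouse left out, for Con A + PBS against control and for infused against control mice, respectively, and Clock from -0.18 to 0.05 in the latter. The number of exact tests below 0.05 (2, 1 and 4) stayed at a pseudocount of 10 and under median centring. The cause of these changes was not tested.

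With the replicate number as a replicate block, 6 clock genes were called after Con A in place of 4 (Per3 and Nr1d1 added, limma adjusted p = 0.0029 and 0.0194), 4 between the injured groups in place of 1 (Per1, Per3 and Nr1d1 added, limma adjusted p = 0.0347, 0.0258 and 0.041) and 4 for infused against control mice. The block called 39.2%, 11.5% and 27.3% of all genes in the 3 comparisons, in place of 38.8%, 8.58% and 26.7%. The labels do not say what the replicate numbers stand for, and whether they mark a shared batch or collection was not tested. DESeq2 and edgeR were not run, since the values are not counts. Depth is unknown, so low genes such as Dbp, Ciart and Elovl3 carry an unknown counting error.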

Other observations

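Glucocorticoid-induced genes, of which 8 of 8 listed were in the table, did not move in 1 direction after Con A. Fkbp5, a co-chaperone of the glucocorticoid receptor, had 938, 778, 791 and 1564 in control mice, 2677, 1826, 2804 and 3242 in Con A + PBS mice and 2034, 1886, 2430 and 3564 in infused mice. It was 2.65-fold higher in Con A + PBS than in control mice (limma adjusted p = 0.000639), with every injured mouse above every control mouse. Tsc22d3 had 2565, 1162, 1508 and 1629 in control mice, 1006, 1014, 1014 and 872 in Con A + PBS mice and 1031, 1981, 1508 and 1168 in infused mice, and fell by 0.75 on the log2 scale after Con A (limma adjusted p = 0.0152). That call ended without control replicate 1 (-0.54). These were the 1 higher and 1 lower call of the 8 after Con A, against 19.5% and 19.2% of all genes. Tsc22d3 is also in the rhythmic output list, where it is 1 of the 5 lower calls. Between the injured groups the list had none called higher and 2 called lower (4.20% and 4.38% of all genes), the phosphatase gene Dusp1 (-1.68, limma adjusted p = 0.0424) and the kinase gene Sgk1 (-0.98, limma adjusted p = 0.0208). In infused against control mice, Fkbp5 was called higher (1.30, limma adjusted p = 0.00187), and Dusp1 (-1.33), Pck1 (-0.96), the gluconeogenic enzyme gene, and Sgk1 (-0.65) were called lower, 1 higher and 3 lower of the 8 against 13.6% and 13.1% of all genes. The list medians were 0.21, -0.48 and -0.56 in the 3 comparisons.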
